A study of Sus scrofa with 15 samples.

Results

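The genes described here are 8 members of the transforming growth factor beta (TGF-beta) and bone morphogenetic protein (BMP) signaling pathways. They are the ligand TGFB1, the co-receptor TGFBR3, the receptor ACVR1, the adaptor DAB2, the feedback inhibitor PMEPA1 and the inhibitors of DNA binding ID1, ID2 and ID3. A gene was measured by the probe sets that carry its symbol and no other in the array annotation, and the probe set with the highest mean over all arrays stands for it. All 8 genes had such a probe set, among 6765 genes named in this way, and 16 probe sets carried their symbols. The study followed granulosa cells, the somatic cells that surround the oocyte in the ovarian follicle, taken from pigs and placed in culture. Total RNA was hybridised on Affymetrix porcine arrays, with 3 arrays on each of day 0, day 1, day 2, day 4 and day 7, 15 in all. The cells of day 0 are labelled as granulosa cells, those of days 1, 2 and 4 as dedifferentiating, and those of day 7 as dedifferentiated (DFOG, the submitters' name for the cultured product). No treatment, genotype or breed is named, and all groups share the same origin in the follicle. The labels call the 3 arrays of a day biological replicates but do not say whether they came from separate animals or cultures, so p-values measure only the spread between these arrays.

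TGF-beta ligands are secreted in a latent form, are released at the cell surface or in the matrix, and bind pairs of type I and type II receptor kinases that phosphorylate SMAD proteins. TGF-betas and activins act mainly through SMAD2 and SMAD3, and BMPs and anti-Müllerian hormone through SMAD1, SMAD5 and SMAD9. Granulosa cells are a classic tissue of this family: they make inhibins, activins, follistatin and anti-Müllerian hormone, and they receive GDF9 and BMP15 from the oocyte. ID genes are well known direct targets of BMP-activated SMADs, and their proteins bind basic helix-loop-helix factors and keep them from DNA.

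The deposited values are log2 intensities, and a difference of 1 is a doubling of the intensity. Array medians lay between 6.40 and 6.55, and the lower quartile of an array between 4.41 and 4.68. A reading in or under that quartile range is at the dim end of the array, so a fold change into or out of it may be understated. Arrays stood apart in 2 ways. All 5 replicate 1 arrays lay at 29.4 to 48.1 on the third principal component (13.1% of the variance), against -41.4 to -5.78 for the other 10 arrays. Day 4 replicate 2 had a 3' over 5' log2 difference of 2.12 for the actin control probe sets, 2.14 for gapdh and 3.52 for the bacterial control dap. Each was above every other array, and the cause was not tested. The actin difference lay between 0.97 and 1.68 in the day 0 arrays and between 0.18 and 1.01 in those of day 1. It lay between 0.02 and 0.68 in those of day 2, and between 0.19 and 0.59 in those of day 7. Leaving out day 4 replicate 2 changed no call of the 8 genes in day 4 against day 0. The actin values moved with the day of culture, and replicate 1 had the lowest of each day, for gapdh as well. Replicate 1 had actin differences of 0.97, 0.18, 0.02, 0.07 and 0.19 on days 0, 1, 2, 4 and 7. The part of these differences in the changes from day 0, or in how replicate 1 stood apart, was not tested. Of 12 measured granulosa markers, 6 fell by day 7 and none rose, with a mean level of 6.55 to 6.78 in the day 7 arrays against 9.42 to 9.65 in the day 0 arrays. By the same rule, given below, 7.28% of all probe sets fell and 9.36% rose. FOXL2 and CYP19A1, both defining granulosa genes, lay below the median of every array on day 0, at 5.89 ± 0.14 and 5.26 ± 0.32 (SD, n = 3 each). The other granulosa markers had higher day 0 means, from 6.44 for WT1 to 14.26 for INHA. Whether the FOXL2 and CYP19A1 probe sets read their genes well was not tested.

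Most of the 8 genes moved by day 1, and not all in the same direction. Relative to day 0, 5 genes rose and 1 fell on day 1, 5 rose and 2 fell on day 2, 6 rose and 2 fell on day 4, and 5 rose and 2 fell on day 7. TGFB1, ACVR1, DAB2, PMEPA1 and ID1 rose on each of the 4 days, TGFBR3 fell on each of them, and ID2 fell from day 2 on. A gene was called when its adjusted p was under 0.05 (limma's moderated test, Benjamini-Hochberg adjusted over 23999 probe sets) and its log2 change was 1 or more in either direction. By this rule 6.47% of all probe sets were higher and 6.03% lower on day 1, 7.68% and 6.09% on day 2, 9.29% and 6.59% on day 4, and 9.36% and 7.28% on day 7. The median change of the 8 genes was 1.59 on day 1, 2.03 on day 2, 2.06 on day 4 and 1.84 on day 7, where the median of all probe sets lay between -0.0605 and -0.00122. All 8 genes passed the test over the whole time course, as did 23.6% of all probe sets. ID3 lost this call after a second quantile normalization, after cyclic loess, and without day 0 replicate 3 or day 4 replicate 1, which left 7. Of the 6765 named genes, taken as the 8 were, 1973 were called over the time course in addition to any 1 member. Shares of all probe sets given here also cover probe sets without a symbol, so they are not shares of named genes. The 8 genes were chosen with earlier results of these data known. In bulk RNA, fewer cells of a type and less RNA per cell cannot be told apart, and this holds for every change given here.

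**Figure D1:**
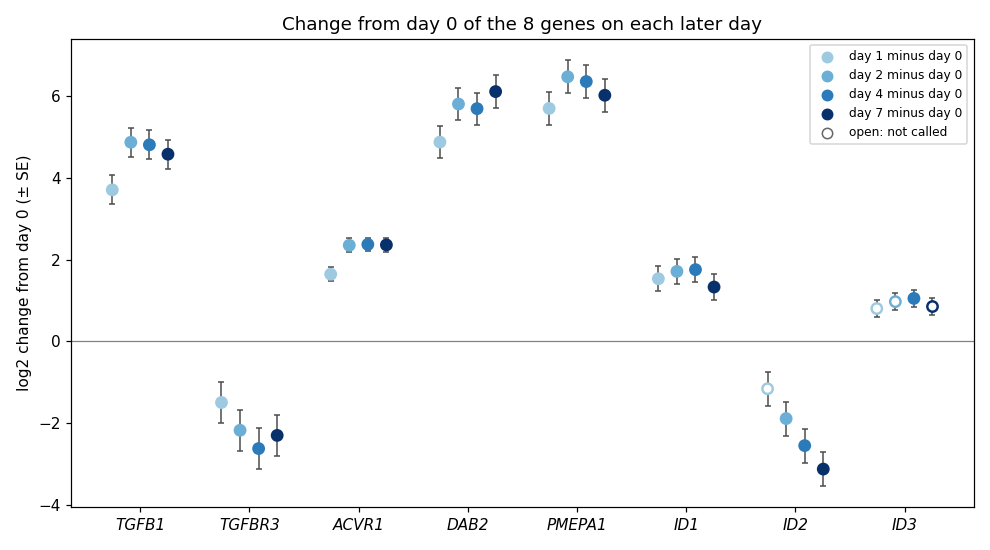
Log2 change of each of the 8 genes (x axis) on days 1, 2, 4 and 7 relative to day 0 (y axis, ± SE of the fit to 15 arrays), with filled points for called changes and open points for changes that were not called. PMEPA1, DAB2 and TGFB1 lie highest, TGFBR3 and ID2 lie below 0, and ID3 stays near 1 and is filled on day 4.

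TGFB1, the ligand, was near the dim end of the arrays before culture and rose by 3.70 ± 0.35 on day 1 and 4.87 ± 0.35 on day 2. It read 3.98, 4.44 and 5.14 on day 0. In culture it read 8.84, 7.54 and 8.30 on day 1, 8.85, 9.67 and 9.65 on day 2, 8.95, 9.57 and 9.46 on day 4, and 8.99, 8.91 and 9.39 on day 7. Every culture array exceeded every day 0 array by more than 2 log2 units. The day 7 mean was 9.10 ± 0.26, against 4.52 ± 0.58 on day 0 (SD, n = 3 each), a 23.8-fold difference (adjusted p = 2.96e-07). Ordered by level the days ran 0, 1, 7, 4 and 2, and neither day 4 against day 2 nor day 7 against day 4 was called. Between day 2 and day 1 the difference of 1.16 ± 0.35 missed the threshold (adjusted p = 0.0721) and passed it with replicate number as a block (adjusted p = 0.0333). The second probe set of TGFB1 rose as well, by 1.84 on day 1 and 2.96 on day 7, and it was called higher on day 2 than on day 1 (1.28, adjusted p = 0.0179).

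The receptors went in opposite directions. TGFBR3, also called betaglycan, presents TGF-beta2 and inhibin to the signaling receptors and is a granulosa cell co-receptor for inhibin. It read 6.39, 5.44 and 6.12 on day 0. In culture it read 6.02, 3.84 and 3.63 on day 1, 4.39, 3.62 and 3.44 on day 2, 3.53, 3.30 and 3.29 on day 4, and 4.12, 3.30 and 3.66 on day 7. Replicate 1 of day 1 remained at the level of day 0, so the day 1 and day 0 arrays overlapped, and from day 2 on all arrays lay below all day 0 arrays. The fall was 1.49 ± 0.50 on day 1 (adjusted p = 0.0427), 2.17 ± 0.50 on day 2, 2.61 ± 0.50 on day 4 and 2.29 ± 0.50 on day 7 (adjusted p = 0.00284). The day 7 mean of 3.69 ± 0.41 was 4.9-fold below the day 0 mean of 5.99 ± 0.49 (SD, n = 3 each), and the levels from day 2 on lay in or under the dim quartile range. The day 1 call was close to the threshold, and with replicate number as a block its adjusted p was 0.00418. Leaving out an array of day 2, 4 or 7 moved its p-value but not the change of -1.49. The call was lost without day 0 replicate 1 or 3 and without day 1 replicate 2 or 3. It was also lost without replicate 2 or 3 of day 2, of day 4 or of day 7. Its change ran between -2.25, without day 1 replicate 1, and -1.06, without day 1 replicate 3. With replicates 2 and 3 only it was -2.05 (adjusted p = 5.55e-05). Replicate 1 was the highest of the 3 arrays on all 4 culture days.

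ACVR1, also called ALK2, is a type I receptor kinase for BMPs and, with AMHR2, for anti-Müllerian hormone. Its level was 6.92, 7.51 and 7.19 on day 0. In culture it was 8.84, 8.73 and 8.99 on day 1, 9.54, 9.63 and 9.51 on day 2, 9.32, 9.78 and 9.63 on day 4, and 9.66, 9.66 and 9.38 on day 7. The arrays of a day lay close together and every culture array exceeded every day 0 array. The rise was 1.64 ± 0.17 on day 1 (adjusted p = 9.46e-06) and between 2.35 and 2.37 on days 2, 4 and 7, which is 5.13-fold on day 7 (adjusted p = 1.41e-07). The step between day 2 and day 1, 0.71 ± 0.17, passed the adjusted p of 0.05 (adjusted p = 0.0228) but was under the minimum change. Its second probe set rose by 1.51 on day 1 and 1.98 on day 7.

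DAB2, an endocytic adaptor that binds TGF-beta receptors and SMAD proteins, rose on every culture day. Its arrays gave 4.09, 4.74 and 5.82 on day 0. The cultured cells gave 10.35, 9.37 and 9.54 on day 1, 10.01, 11.01 and 11.04 on day 2, 10.30, 10.82 and 10.59 on day 4, and 10.97, 11.11 and 10.89 on day 7. The spread on day 0, with an SD of 0.87, was the widest of the 5 days, and no culture array came within 3 log2 units of a day 0 array. The mean was 10.99 ± 0.11 on day 7, against 4.88 ± 0.87 on day 0 (SD, n = 3 each), a rise of 6.10 ± 0.39 or 68.8-fold (adjusted p = 6.04e-08). Its lowest day 0 reading lay under the dim quartile range, so the rise may be understated. On day 1 the rise was 4.87 ± 0.39 (adjusted p = 1.36e-06). The other probe sets of DAB2 also rose on all 4 days, with changes over the 3 probe sets between 2.14 and 4.87 on day 1 and between 3.22 and 6.10 on day 7.

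PMEPA1 is a membrane protein induced by TGF-beta that binds receptor-activated SMADs and limits their signaling, and it rose on every culture day. It read 4.90, 5.74 and 6.51 on day 0. In culture it read 11.15, 11.40 and 11.66 on day 1, 11.52, 12.50 and 12.51 on day 2, 11.65, 12.42 and 12.11 on day 4, and 11.04, 11.89 and 12.25 on day 7. All culture arrays were above 11 and all day 0 arrays below 7. The rise was 5.69 ± 0.41 on day 1 (adjusted p = 5.12e-07), 6.46 ± 0.41 on day 2, 6.35 ± 0.41 on day 4 and 6.01 ± 0.41 on day 7 (adjusted p = 9.28e-08), the last a 64.6-fold difference between 11.73 ± 0.62 on day 7 and 5.71 ± 0.81 on day 0 (SD, n = 3 each). All 5 probe sets of PMEPA1 rose on each culture day, with changes between 2.13 and 5.69 on day 1 and between 2.13 and 6.01 on day 7. The probe sets disagreed on replicate 1, which was the lowest of the 3 arrays on all 4 culture days in 2 of them, the reported probe set included, and the highest on all 4 days in 2 others. The cause of this difference was not tested.

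**Figure D2:**
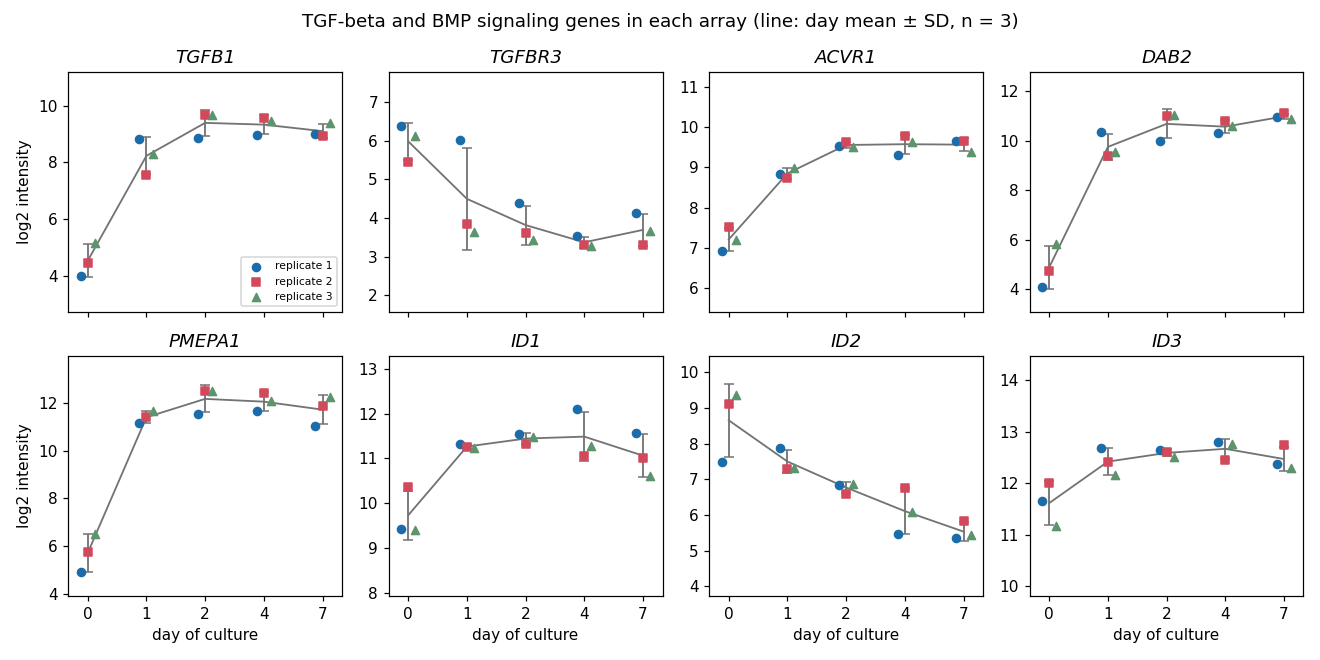
Log2 intensity (y axis, with its own range in each panel) of the 8 genes by day of culture (x axis), with 1 point per array, the shape and colour of a point giving the replicate number, and a line through the day means with the SD of 3 arrays. TGFB1, ACVR1, DAB2 and PMEPA1 step up on day 1 clear of every day 0 array, TGFBR3 and ID2 go down, and replicate 1 of TGFBR3 on day 1 stays at 6.02.

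**Figure D3:**
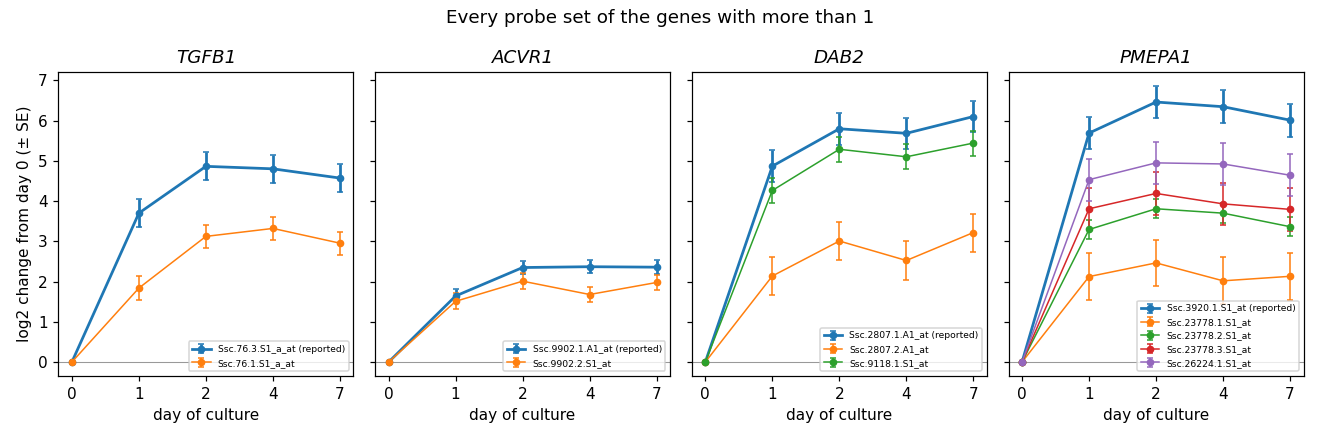
Log2 change from day 0 (y axis, ± SE) by day of culture (x axis) for every probe set of the 4 genes that have more than 1, with the reported probe set as the thick line. All 12 lines lie above 0 on each culture day, and their sizes differ within DAB2 and PMEPA1, from 3.22 to 6.10 and from 2.13 to 6.01 on day 7.

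The ID genes divided. ID1 rose on all 4 culture days, ID3 passed the test on day 4 alone, and ID2 fell from day 2 on. ID1 stood at 9.42, 10.37 and 9.40 on day 0. Its culture values were 11.32, 11.24 and 11.23 on day 1, 11.55, 11.31 and 11.47 on day 2, 12.11, 11.06 and 11.29 on day 4, and 11.56, 11.02 and 10.60 on day 7. Every culture array exceeded every day 0 array, replicate 1 being the highest array of each culture day. The rise was 1.53 ± 0.31 on day 1 (adjusted p = 0.00202), 1.71 ± 0.31 on day 2, 1.75 ± 0.31 on day 4 and 1.33 ± 0.31 on day 7 (adjusted p = 0.00421), or 2.51-fold on day 7. With replicates 2 and 3 only, the day 7 change was 0.92 and no longer reached the minimum change of 1.

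ID2 read 7.48, 9.11 and 9.36 on day 0. In culture it read 7.87, 7.30 and 7.31 on day 1, 6.85, 6.59 and 6.87 on day 2, 5.48, 6.75 and 6.09 on day 4, and 5.35, 5.83 and 5.43 on day 7. Replicate 1 was the lowest of the day 0 arrays and lay below replicate 1 of day 1, so day 1 overlapped day 0, and from day 2 on no culture array reached a day 0 array. The mean was lower on each later day, 8.65 on day 0, 7.50 on day 1, 6.77 on day 2, 6.11 on day 4 and 5.53 on day 7. The change was -1.15 ± 0.42 on day 1 (adjusted p = 0.0584), which missed the threshold. ID2 fell by 1.88 ± 0.42 on day 2, 2.54 ± 0.42 on day 4 and 3.12 ± 0.42 on day 7 (adjusted p = 5.46e-05), which is 8.67-fold lower on day 7. The day 1 change passed after each of the 3 other normalizations (adjusted p between 0.0289 and 0.0496), without the dimmest probe sets (adjusted p = 0.0436), and without day 4 replicate 1 or 2. It was -1.74 without day 0 replicate 1 (adjusted p = 0.00121) and -1.93 with replicates 2 and 3 only (adjusted p = 9.95e-05).

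ID3 stood at 11.66, 12.01 and 11.17 on day 0. Its culture values were 12.68, 12.42 and 12.15 on day 1, 12.64, 12.61 and 12.51 on day 2, 12.79, 12.44 and 12.76 on day 4, and 12.37, 12.73 and 12.29 on day 7. Its culture arrays lay above all 3 day 0 arrays by a small margin. The change was 0.80 ± 0.21 on day 1, 0.97 ± 0.21 on day 2, 1.05 ± 0.21 on day 4 and 0.85 ± 0.21 on day 7, with adjusted p between 0.00146 and 0.0108. The day 4 value alone reached a log2 change of 1, and cyclic loess (0.72) or quantile normalization for a second time (0.81) brought it under 1. It was also under 1 without day 0 replicate 3 (0.83) or day 4 replicate 1 (0.99), and without day 0 replicate 2 ID3 was called on day 1 (1.00), day 2 (1.17) and day 7 (1.05) as well. ID4, the remaining family member on the array, rose by 1.14 on day 1, 1.39 on day 2 and 1.06 on day 4, and its change on day 7 was 0.61 and not called.

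After day 1 few differences between days passed the test. By its reported probe set, none of the 8 was called between day 2 and day 1, where 2.04% of all probe sets were higher and 1.00% lower; the lowest adjusted p was 0.0228, for ACVR1. None was called between day 4 and day 2, where 2.00% were higher and 0.538% lower, with a lowest adjusted p of 0.576. None was called between day 7 and day 4, where 0.0458% were higher and 0.0125% lower and the lowest adjusted p was 1. With replicates 2 and 3 only, TGFB1 (1.74) and DAB2 (1.57) were called higher on day 2 than on day 1. The median change of the 8 genes over all arrays was 0.44 on day 2 against day 1, -0.09 on day 4 against day 2 and -0.21 on day 7 against day 4. Between day 7 and day 1, where 5.73% of probe sets were higher and 3.31% lower, DAB2 was higher by 1.23 ± 0.39 (adjusted p = 0.0426) and ID2 lower by 1.96 ± 0.42 (adjusted p = 0.00436). The DAB2 call was lost without replicate 2 of day 0, of day 1 or of day 2, without replicate 3 of day 1 or of day 4, and without any 1 of the day 7 arrays, with changes between 1.04 and 1.53 over all 15 arrays left out in turn. It held with replicates 2 and 3 only (1.54, adjusted p = 0.0024). Of the other DAB2 probe sets, 1 was called higher (1.18, adjusted p = 0.016) and 1 was not called (1.08, adjusted p = 0.142). TGFB1 differed by 0.87 ± 0.35 between day 7 and day 1 (adjusted p = 0.109) and was not called, but it passed without day 1 replicate 1 (1.18, adjusted p = 0.0392), and its second probe set was called higher (1.12, adjusted p = 0.0146).

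The profiles of the 8 genes were compared over the 15 arrays with Pearson's r, which is given as a description, since all arrays share the steps between the 5 days. TGFB1 and DAB2 had r = 0.988, TGFB1 and PMEPA1 0.978, DAB2 and PMEPA1 0.979, and ACVR1 had 0.970 with TGFB1. TGFBR3 ran against these 4 genes, with r between -0.86 and -0.79. ID1 and ID3 had r = 0.886, and ID2 had -0.61 with ID1 and -0.68 with ID3. Among 1973 genes called in the time course, the 3 most like TGFB1 were DAB2, RBFOX2 (0.980) and MAOB (0.979). Those most like DAB2 were TGFB1, MCRIP2 (0.985) and RBFOX2 (0.981), and those most like PMEPA1 were GNAI1 (0.987), DNAJC6 (0.981) and FAM57A (0.980). ACVR1 was closest to CAPG (0.987), LAMB1 (0.987) and KIAA0930 (0.986). TGFBR3 was closest to MACF1 (0.962), IGFBP2 (0.943) and RPRD1B (0.943). ID2 was closest to LOC100525572 (0.967), METTL17 (0.960) and TBC1D1 (0.959). ID1 and ID3 shared their closest genes LYPLA1 (0.931 with ID1 and 0.921 with ID3) and LIMS1 (0.927 and 0.918), with JPT1 (0.925) next for ID1 and MTFR1 (0.904) for ID3.

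Around the 8 genes, 9 lists of pathway genes held 154 symbols, of which 82 were measured by a probe set of their own, the 8 included. Without the 8 genes, 22 of 74 rose and 7 fell on day 1, 30 rose and 6 fell on day 2, 33 rose and 6 fell on day 4, and 34 rose and 6 fell on day 7. Of all probe sets, 6.47% rose and 6.03% fell on day 1, and 7.68% and 6.09% on day 2. The shares were 9.29% and 6.59% on day 4, and 9.36% and 7.28% on day 7. The day 7 shares apply to the day 7 counts of each list below. In lists this short, a count of 1 or 2 called genes cannot be told from those shares. Over all 82, 11 rose and 2 fell between day 2 and day 1, 5 rose and 3 fell between day 4 and day 2, and none was called between day 7 and day 4. With replicate number as a block, 20 were called between day 2 and day 1, 13 between day 4 and day 2, and 1 between day 7 and day 4. Of all probe sets in the main fit, 2.04% were higher and 1.00% lower on day 2 than on day 1. The shares were 2.00% and 0.538% for day 4 against day 2, and 0.0458% and 0.0125% for day 7 against day 4. TGFBR2, BMPR2, BMP2, SMAD2, SMAD5, SMAD6, SMAD7, SMAD9, SMURF1, SMURF2, TGFBI and CCN2 had no probe set of their own and are not analysed here.

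Of 13 measured ligand genes, 4 rose and 4 fell on day 7, where 9.36% of all probe sets rose and 7.28% fell. TGFB2, a second TGF-beta ligand, differed by 0.96 on day 1 and was not called, and rose by 2.69 on day 2, 3.13 on day 4 and 2.22 on day 7. TGFB3 was not called on any day, with changes between 0.14 and 0.78. BMP4 came late: it was not called on days 1 and 2 (-0.16 and 0.29) and rose by 2.05 on day 4 and 1.39 on day 7. GDF11 rose by 2.72 on day 7. Of the ligand genes that granulosa cells express, INHA, the inhibin alpha subunit, fell by 1.31 on day 1 and 7.21 on day 7, INHBB by 2.24 and 3.05, and AMH by 2.18 and 2.47. INHBA, the other activin and inhibin beta subunit in the list, was not called on any day (-0.07 on day 1 and -0.52 on day 7). GDF9, an oocyte ligand, fell by 1.23 on day 1. The day 1 call of INHA was lost without day 1 replicate 3 (adjusted p = 0.0718).

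Of 11 receptor genes, 2 rose on day 7, ACVR1 and the activin receptor ACVR1B (1.38 on day 1 and 1.93 on day 7), and 2 fell, TGFBR3 and AMHR2, the anti-Müllerian hormone receptor (2.09 on day 7). Of all probe sets, 9.36% rose and 7.28% fell on day 7. The TGF-beta type I receptor TGFBR1 was higher on day 2 alone, by 1.31, and differed by 0.41 on day 1, 0.89 on day 4 and 0.51 on day 7. The BMP receptor BMPR1B was likewise called on day 2 (1.82) and not on day 1 (0.25), day 4 (0.86) or day 7 (0.26), while BMPR1A stayed under the minimum change on all days, between 0.27 and 0.69.

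Among 9 SMAD and adaptor genes, DAB2, CAV1 and FKBP1A rose on day 7, where 9.36% of all probe sets rose and 7.28% fell. CAV1, the caveolin that takes part in receptor uptake, rose by 4.43 on day 1 and 5.43 on day 7, and FKBP1A, which binds type I receptors, by 2.15 on day 7. SMAD3, the TGF-beta and activin SMAD, rose by 1.59 on day 1 and was not called on day 7 (0.13), and it was lower on day 7 than on day 1 by 1.46. SMAD1, a BMP SMAD, rose by 1.49 on day 1 and 1.54 on day 2 and was not called on day 4 (0.93) or day 7 (0.82). The day 1 call of SMAD1 was lost after a second quantile normalization (adjusted p = 0.0595), after cyclic loess (0.0802) and without any 1 of 7 arrays: day 0 replicate 1 (1.02, adjusted p = 0.179) or 3, day 1 replicate 2 or 3, day 4 replicate 3, and day 7 replicate 2 or 3. SMAD1 was not called over the time course (adjusted p = 0.115). SMAD4, the shared partner of both branches, was not called on any day, with changes between -0.33 and 0.08.

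Of 5 feedback inhibitors, BAMBI and PMEPA1, itself 1 of the 8 genes, rose on day 7. Of all probe sets, 9.36% rose and 7.28% fell on day 7. BAMBI, a decoy receptor without kinase activity, rose by 1.70 on day 1, 2.85 on day 2, 2.85 on day 4 and 2.07 on day 7. Of 4 extracellular antagonists, 3 rose and 1 fell on day 7, beside the same shares of all probe sets. FST, follistatin, which binds activin, fell by 2.16 on day 1 and 5.11 on day 7, and its relative FSTL3 rose by 1.55 and 2.04. The matrix proteoglycans DCN and BGN, which can bind TGF-beta, rose by 7.22 and 2.84 on day 7.

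Of 11 genes of latency and activation, 9 rose on day 7, where 9.36% of all probe sets rose. Of these 9, MMP14 (1.05) was under the minimum change after a second quantile normalization (0.99). It was also under it with replicates 2 and 3 only (0.81) and without some single arrays. THBS1, a thrombospondin that activates latent TGF-beta, rose by 5.02 on day 1 and 5.39 on day 7. ITGB3, an integrin subunit, rose by 2.38 and 5.54, and PLAT, tissue plasminogen activator, by 3.66 and 3.20. FBN1, the fibrillin that anchors latent complexes, was not called on day 1 (-0.83) and rose by 3.11 on day 7.

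Among 15 other genes known as TGF-beta targets, 12 rose on day 7 and none fell, where 9.36% of all probe sets rose and 7.28% fell. Of these 12, CYR61 (1.32) lost its call after a second quantile normalization (adjusted p = 0.0779) and after cyclic loess (0.0813). The CYR61 call was also lost without day 0 replicate 1 (0.76, adjusted p = 0.174) and in other settings. FN1, fibronectin, rose by 3.47 on day 1 and 7.91 on day 7, and LOX, lysyl oxidase, by 4.47 and 7.05. The contractile genes TAGLN and ACTA2 rose by 4.35 and 1.69 on day 1 and by 7.69 and 6.55 on day 7. Of 8 other genes known as BMP targets, HES1 (1.87) and DLX5 (4.70) rose on day 7, beside the same shares of all probe sets. Relative to day 0, HEY2 fell on day 2 alone, by 1.56. In the list of ID genes and their partners, TCF21, a tissue-restricted helix-loop-helix factor, rose by 1.34 on day 7, and TCF4, the E protein gene measured, was not called on any day.

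**Figure D4:**
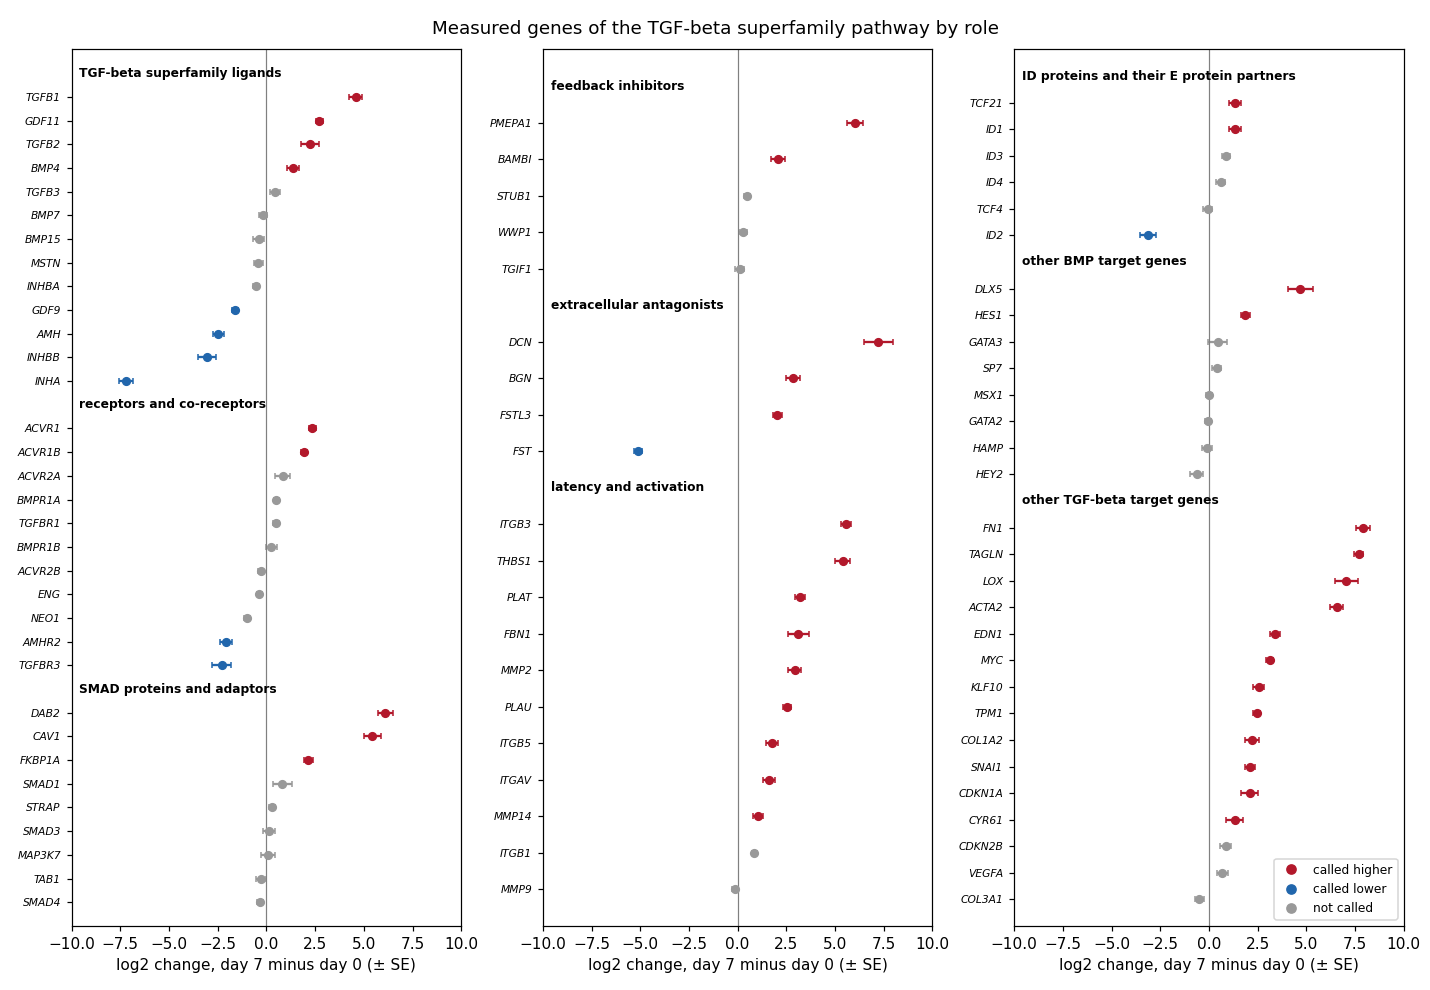
Log2 change on day 7 relative to day 0 (x axis, ± SE) for the 82 measured pathway genes, 1 row per gene and grouped by role, with red points for genes called higher, blue for genes called lower and grey for those not called. The TGF-beta target and latency lists hold mostly red points, whereas the ligand list holds 4 red and 4 blue points, with INHA the lowest.

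Some markers of other cell types also changed by day 7, when 9.36% of all probe sets were higher and 7.28% lower. ACTA2 and DCN stand in these marker lists as well as in the pathway lists, and INHA, AMH and FST are granulosa markers too. Of 7 measured smooth muscle and pericyte markers, 6 rose on day 7. Their mean level was 9.76 to 10.2 in the day 7 arrays against 5.84 to 6.45 in the day 0 arrays. Of 7 theca and stroma markers, 3 rose and 1 fell, INSL3 (by 2.36), with a mean level of 8.89 to 8.97 on day 7 against 6.40 to 6.62 on day 0. ACTA2 counts in both of these lists, at 14.23 on day 7 against 7.68 on day 0. The median change on day 7 was 3.66 over the smooth muscle and pericyte list and 0.30 over the theca and stroma list. Of 10 endothelial markers, 2 rose and 1 fell, with a mean level of 5.53 to 5.73 in the day 7 arrays against 5.38 to 5.61 in the day 0 arrays. Of 8 macrophage markers, 1 rose, with a mean level of 4.44 to 4.62 on day 7 against 4.22 to 4.44 on day 0. None of 9 lymphocyte and granulocyte markers or 2 red blood cell markers was called on day 7 against day 0, and 1 of 6 oocyte markers, GDF9, fell. The part of these cell types in the changes of the 8 genes was not tested.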

How the data were processed

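The authors deposited log2 intensities, for which the submitters' processing notes name robust multi-array average (RMA) as the tool. Its version and settings, and any genome build, are not given in the sources used here. Deposited values lay between 2.29 and 14.9, as log2 intensities do. The table held 24123 probe sets, of which 23999 were tested and 124 were array controls. Probe sets were named from the array annotation: 10069 had 1 symbol, 198 several and 13732 none.

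A linear model with the day of culture as its factor was fitted over 15 arrays (lmFit and eBayes of limma 3.58.1, R 4.3.3), with p-values adjusted by Benjamini-Hochberg over all tested probe sets. For the time course, the moderated F test was used, and the day means had to span at least 1. The fit was tested on simulated data. The members and lists were chosen with earlier results of these data known. The genes named were the 8 members, the 3 genes most like each, a set of pathway genes fixed by name and, in each pathway list, up to 4 genes with the largest range of day means among those called in the time course. AMH, CYR61, GDF9, GDF11, INHBA, MMP14 and TCF4, and the marker and receptor genes named outside those lists, were named after their values were seen.

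Arrays of the same number deviated together from their day means, with every pair's correlation over 0.1 in 7 of 8 comparisons (lowest 0.0609, in day 1 against day 0). The labels do not say that numbers pair arrays, and replicate 1 alone stands apart, so the main fit has no block and blocked values are given where they change a call or a count. Alternatives were other normalizations, a filter on dim probe sets, other settings of the fit, the replicate block, fewer arrays, and the mean of a gene's probe sets. The number of arrays limits the precision.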

Additional observations from a re-analysis of the deposited data

How the results depend on the processing

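For the 8 genes, 56 changes and time course results were recomputed under 25 settings each where possible, and 1323 of 1385 values kept their direction and their side of the threshold, 30 lost a call, 26 gained one and 6 changed sign, all 6 of them uncalled. The changed signs were those of ID3 in day 7 against day 1 (-0.12 after a second quantile normalization, -0.0035 after cyclic loess, -0.083 without day 1 replicate 3 and -0.084 without day 7 replicate 2), TGFBR3 in day 2 against day 1 (0.081 without day 1 replicate 1) and ID1 in day 7 against day 1 (0.025 without day 7 replicate 3). Over all arrays left out in turn these changes ran between -0.084 and 0.18 for ID3, between -1.11 and 0.081 for TGFBR3 and between -0.45 and 0.025 for ID1. ID2 on day 1 was called with the replicate block (adjusted p = 0.0345), where the numbers do not pair by the check, and also under all 3 other normalizations (0.0289 to 0.0496), with the dim filter (0.0436) and without day 0 replicate 1 or day 4 replicate 1 or 2. ID3 lost its time course call in 4 settings. TGFBR3 on day 1 lost its call after cyclic loess (adjusted p = 0.0731) and with only the 6 arrays compared (0.137), and it has no value under the filter that leaves out the dimmest 40% of probe sets, since its probe set is among them. Without a minimum change, 6020, 6248, 7360 and 7514 probe sets were called on days 1, 2, 4 and 7 against day 0 (3001, 3306, 3811 and 3993 with it), 1461 in day 2 against day 1 (729), 1002 in day 4 against day 2 (608), 4524 in day 7 against day 1 (2168) and 8605 over the time course (5670), and 1 of the 8 genes was called in day 2 against day 1. With the replicate block, 1 of the 8 genes and 20 pathway genes were called in day 2 against day 1, 13 pathway genes in day 4 against day 2, and 1 pathway gene and 41 probe sets in day 7 against day 4. With replicates 2 and 3 only, 2 of the 8 genes, 25 pathway genes and 1321 probe sets were called in day 2 against day 1, 15 pathway genes in day 4 against day 2, and 2 pathway genes and 55 probe sets in day 7 against day 4, where the fit to all arrays called 14 probe sets. With the mean of a gene's probe sets, 1 of the 8 genes was called in day 2 against day 1 and 1 pathway gene in day 7 against day 4. With only the 6 arrays compared, 371 probe sets were called in day 4 against day 2 and 0 in day 7 against day 4; without the dimmest probe sets, 4 in day 7 against day 4. After a second quantile normalization, 1 of the 8 genes was called in day 7 against day 1. Leaving out each array in turn, between 0 and 1 of the 8 genes were called in day 2 against day 1 and between 1 and 3 in day 7 against day 1, and between 451 and 986 probe sets in day 2 against day 1 and between 4 and 15 in day 7 against day 4. The cause of these differences was not tested, except that the minimum change removes calls by construction. For pathway genes called on day 1 or day 7, 1683 of 1720 values kept their call, 37 lost it and none changed sign.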

Other observations

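A set of receptor genes of granulosa cells, chosen after their values were seen, dipped on day 1 and stood higher on day 2. The anti-Müllerian hormone receptor AMHR2 had means of 8.45 ± 0.12 on day 0, 7.24 ± 0.16 on day 1, 8.52 ± 0.32 on day 2, 6.77 ± 0.82 on day 4 and 6.35 ± 0.24 on day 7 (SD, n = 3 each). It was higher on day 2 than on day 1 by 1.29 (limma, adjusted p = 0.0255) and lower on day 4 than on day 2 by 1.75 (adjusted p = 0.00489). The luteinizing hormone receptor LHCGR had means of 12.06 ± 0.71, 9.06 ± 0.32, 10.74 ± 0.55, 7.60 ± 0.34 and 5.91 ± 0.11 on days 0, 1, 2, 4 and 7, and was higher on day 2 than on day 1 by 1.68 (adjusted p = 0.00955). The follicle stimulating hormone receptor FSHR had means of 7.01 ± 0.48, 5.68 ± 0.67, 8.24 ± 0.18, 7.03 ± 0.66 and 6.11 ± 0.73 on the same days, and was higher on day 2 than on day 1 by 2.55 (adjusted p = 0.00312). The BMP receptor BMPR1B was also higher on day 2 than on day 1, by 1.58 (adjusted p = 0.00468), without a fall on day 1 (0.25 relative to day 0). Since the genes were picked for this shape, it is a description.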
